A study of Rattus norvegicus with 110 samples.

Results

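The 200 genes described here were those whose level differed most between vehicle-treated male rats within the same group, in liver. They were chosen from 31998 gene identifiers, of which 8828 had a mean of at least 5 CPM in vehicle liver, where CPM is the count scaled to the same total in every library. For each of these 8828 genes the group mean of log2(CPM + 1) was subtracted and the SD of what remained was pooled over 27 males, and the 200 genes with the largest SD were kept. The spread in vehicle liver is therefore a description and was not tested. The tests of date and litter used the kidney of the same males or the CCl4-treated livers, which the choice did not use. The test between the organs set the kidney against the vehicle liver deviations that chose the genes, and the tests of dose and ancestry compared group means over vehicle and treated livers together. The liver and kidney RNA came from F2 males of the outbred Sprague Dawley rat, 7 in each group and 6 in group 17. Cohort A (groups 11 to 13) had F0 and F1 forefathers given vehicle, cohort B (14 to 16) a CCl4-treated F1 forefather, cohort C (17 to 19) a CCl4-treated F0 forefather, and cohort D (20 to 22) both. Carbon tetrachloride (CCl4) injures the liver. In each cohort the F2 males received olive oil alone (vehicle), 8% CCl4 (low dose) or 50% CCl4 (high dose) by oral gavage, at 0.5 mL/kg and 3 doses per week for 39 days. Kidney was sequenced for the 27 vehicle males only. Necropsies fell on 4 dates, with each litter on a single date, and males 1 and 2 of group 17 were littermates.

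Genes that differ widely between animals of one group fall into several familiar classes. Clock genes such as Per1 and Nr1d1 rise and fall over the day in most organs. Glucocorticoid-induced genes such as Tsc22d3, Zbtb16 and Tat follow the stress hormone. Cyp1a2 responds to compounds that bind the aryl hydrocarbon receptor. Some genes are also absent in part of the animals of an outbred stock, or have near-identical copies between which short reads can be divided.

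Symbols were paired with identifiers only for genes that the study had called for an effect of F0 treatment on these samples. Of the 200 genes, 24 had a symbol (12%), against 13.2% of the 8828 genes, and the other 176 are known here by identifier alone. The 24 genes were therefore picked by the study on these libraries, and their F0 effect below is not independent evidence. The liver libraries held 32011243 to 49212897 counts in vehicle males and 31638559 to 51343589 in treated males, and the kidney libraries 21961746 to 35055218, so that 3 counts, the limit a count of 0 allows, correspond to 0.0937 CPM in the smallest vehicle liver library. This covers counting error only. Vehicle liver libraries of the same group correlated at 0.853 to 0.985 (log2 values). Male 3 of group 17 stood apart in liver: it held 23.5% of the squared deviations over all 8828 genes, its summed pericentral hepatocyte markers (4 of 10 with an identifier) were the lowest at 334 CPM, against a highest of 4014 CPM in male 4 of group 14, most of it the list's Cyp1a2, and its sinusoidal endothelial markers (2 of 9) the lowest at 46.7 CPM, against a highest of 138 CPM. The sum of its Kupffer cell markers (4 of 12), at 246 CPM, lay within the range of 121 to 325 CPM, but the single markers did not move together. Its Cd163 (14.97 CPM) was the lowest and its C1qb (88.8 CPM) the highest of the 27 livers, with Adgre1 at 10.27 CPM and Cd5l at 131.7 CPM. The kidney libraries of male 1 of group 17 and male 7 of group 20 held 11.9% and 9.91% of the squared deviations in kidney. None of the hepatocyte or erythroid markers had a paired symbol, so the labelled liver could not be checked against them. The kidney tubule marker Lrp2 had a median of 4141 CPM in kidney and 13.1 CPM in vehicle liver.

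The SD of the 200 genes ran from 0.681 to 2.82 on the log2 scale with a median of 0.844, against 0.255 over the 8828 genes. The boundary was soft. The last genes inside, ENSRNOG00000021029.4 and ENSRNOG00000058238.1, had SDs of 0.6823 and 0.6815, and the first outside, ENSRNOG00000060307.1 and ENSRNOG00000047098.2, had 0.6814 and 0.6809. Their mean levels ran from 5.002 to 2003 CPM with a median of 19.6 CPM, near the 21.8 CPM of all 8828 genes, and 22 of them had no count in at least 1 vehicle liver.

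The deviations were spread over the animals. Each male held 2.16% to 7.89% of the squared deviations of the 200 genes, and the highest share was that of male 3 of group 17, far below its share over all genes. That male was the farthest from its group mean for 41 of the 200 genes. Without it 180 of the 200 genes were chosen again, and without any other single male 188 to 196. The 8 males of date 1 held 29.4%, the 7 of date 2 31.01%, the 4 of date 3 13.9% and the 8 of date 4 25.8%. The genes were lowest on date 1 in 74 cases and highest there in 27. They were highest on date 2 in 62 cases and lowest in 44, on date 3 in 52 and 47, and on date 4 in 59 and 35. Differences between dates made up a median of 16.7% of a gene's squared deviations (1.15% to 61.8%), against 26.1% over all 8828 genes and 13.04% for 3 date terms among 23 residual degrees of freedom. The date held over 50% of the squared deviations for 4 genes and a single male did so for 8, and the farthest male held a median of 20.2%.

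**Figure D1:**
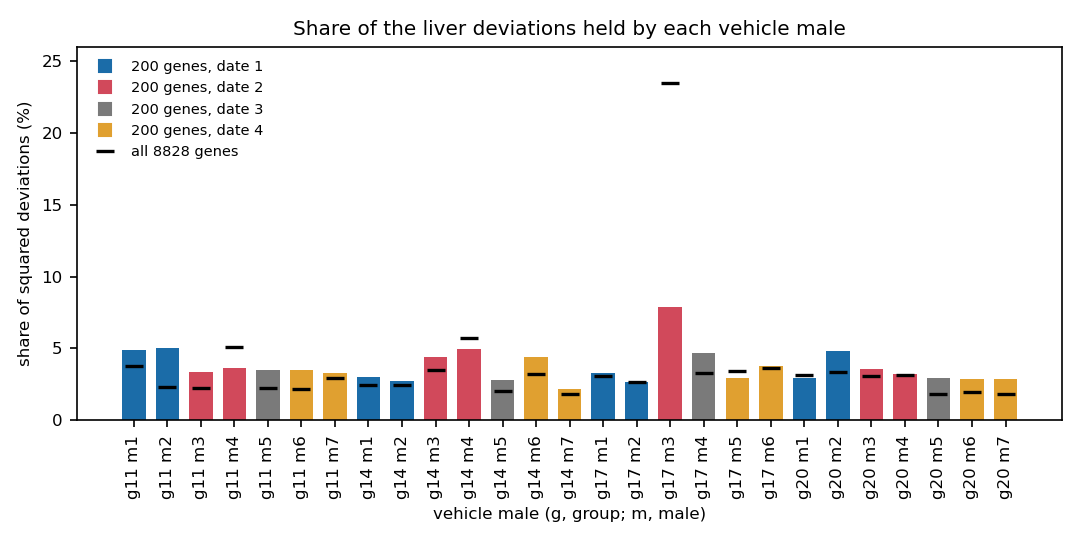
Share of the squared deviations from the group mean held by each vehicle male in liver (vertical axis, percent), as bars coloured by necropsy date for the 200 genes and as black lines for all 8828 genes. The bars lie between 2.16% and 7.89%, whereas male 3 of group 17 holds 23.5% over all genes.

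Many of the genes of largest spread had males in separate low and high ranges, and for some of them the low males were nearly at 0. A gap of at least 1.5 on the log2 scale, with at least 3 males on each side, was found for 21 genes. These were all such genes among the 8828 (0.238%), since a gap of that size by itself gives a large SD, and none of them had a symbol. The widest gap was that of ENSRNOG00000032871.4, at 0.0489 to 0.496 CPM in 12 males and 24.9 to 135 CPM in the other 15. For ENSRNOG00000033517.4, 7 males lay at 0 to 0.194 CPM and 20 at 13.8 to 54.8 CPM. For ENSRNOG00000030704.4, 19 males lay at 0 to 0.621 CPM and 8 at 13.9 to 27.1 CPM. The low males of these genes came from all 4 groups, and no group or date held all of them. Where 2 identifiers are near-identical copies the estimated counts may be divided between them. One such candidate pair, ENSRNOG00000050864.2 and ENSRNOG00000046990.2, had SDs of 1.67 and 1.59 and moved in opposite directions (r = -0.92 over 27 males), whereas their sum varied by an SD of 0.197 and stayed at 10.9 to 19.9 CPM. The levels of both are uncertain.

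The kidney, which had no part in the choice, separated the same males for some of these genes. Of the 21 genes with a gap, 18 reached a mean of 5 CPM in kidney, and for 9 of them all 27 males lay on the same side in both organs. For ENSRNOG00000033517.4 the 7 males low in liver had 0 to 0.147 CPM in kidney and the others 14.7 to 66.2 CPM. For ENSRNOG00000012067.6 the 13 low males had 0.405 to 2.20 CPM in kidney and the other 14 had 24.9 to 122 CPM. For the remaining 9, between 5 and 21 males kept their side. In kidney the side was set by the widest gap whatever its size, and for the remaining 9 this gap was 0.048 to 2.68 on the log2 scale. Where it was small, the males had no clear sides in kidney and the count has little meaning. The gene of widest gap in liver, ENSRNOG00000032871.4, belonged to the remaining 9: its kidney level was 9.86 to 35.7 CPM in the males low in liver and 17.98 to 39.98 CPM in the others, which overlapped. Another 3 genes were not expressed in kidney at 5 CPM. Among these was ENSRNOG00000051118.1, at 262 to 356 CPM in the livers of males 3 and 4 of group 11 and male 3 of group 14, all of date 2, and at 3.42 to 34.1 CPM in the other 24.

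**Figure D2:**
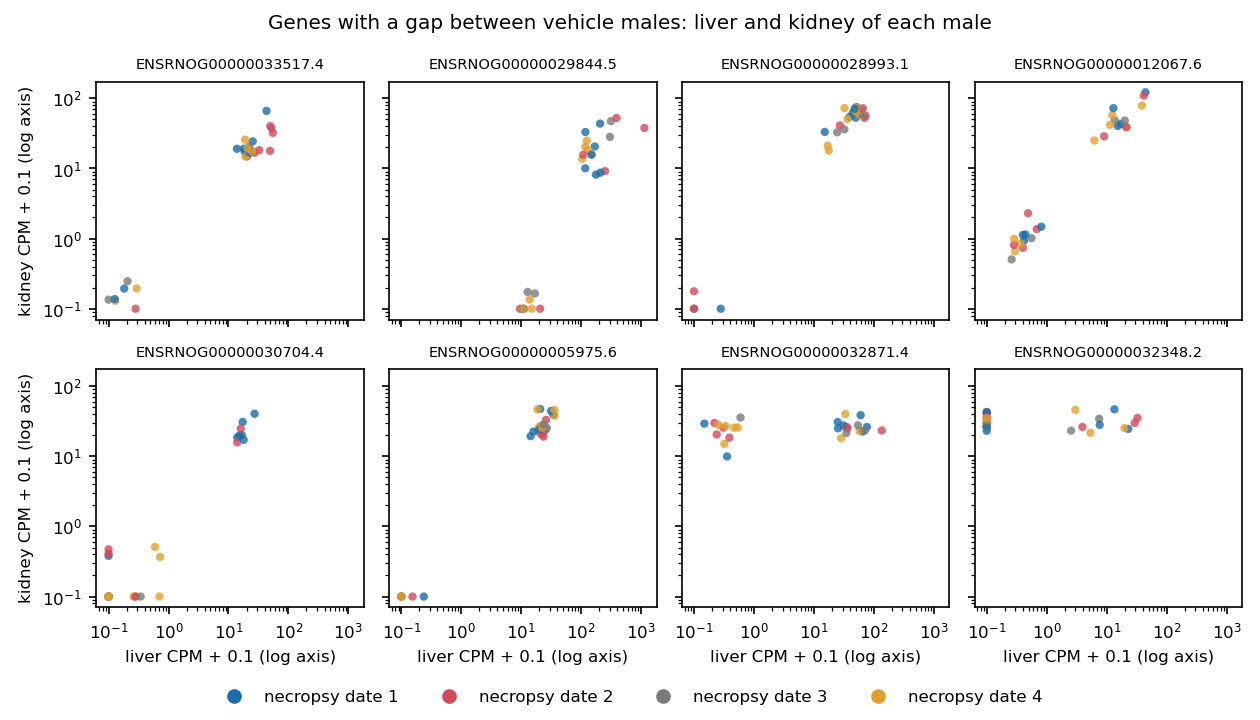
Liver and kidney level (CPM + 0.1, both axes logarithmic) of 8 genes with a gap between vehicle males, 1 point per male, coloured by necropsy date. In the first 6 panels all 27 males lie on the same side of the gap in both organs, whereas ENSRNOG00000032871.4 and ENSRNOG00000032348.2 are split in liver alone.

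In treated liver 6 of the 9 genes whose males all lay on the same side in both organs again had a gap of at least 1.5 at both doses. Over the 6, low-dose and high-dose littermates lay on the same side in 15 to 20 of 22 pairs (68.2% to 90.9%), against 80 to 123 of 174 pairs from different litters of the same cohort (46.0% to 70.7%). These pairs share animals and are given as a description.

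Over all 8295 genes with at least 5 CPM in both organs, liver and kidney of the same male were correlated after subtraction of the group means, with a two-sided permutation test within groups and Benjamini-Hochberg adjustment over these genes. The test covered 136 of the 200 genes and called 33 of them (24.3%), where it called 1.45% of all genes tested. All 33 correlations were positive. An r of at least 0.5 was reached by 43 of the 136 genes (31.6%), against 3.75% of all genes, and the median r was 0.25 against -0.00032. The 15 genes with an r of at least 0.9 were also all the genes that reached it among the 8295, and 9 of them had a gap. The other 24 called genes had no such gap, though for some of them, described below, 1 to 5 males stood apart from the rest. Over the 136 genes, 21 of 27 livers were closest to the kidney of their own male. The kidney level was under 1 CPM for 45 of the 200 genes, among them Cyp1a2, Mfsd2a, Tat and Cdh17.

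Of the 17 genes with a symbol that could be tested, 6 were called. Nr1d1 was on the clock list, Tsc22d3 and Zbtb16 on the glucocorticoid list, Per1 on both and Usp2 and Zfp354a on neither. The unadjusted permutation p was 1e-05 for Per1, Tsc22d3 and Usp2, the smallest that 100000 resamples can give, 6e-05 for Nr1d1, 4e-05 for Zbtb16 and 0.00042 for Zfp354a, and with Spearman's rho the adjusted permutation p of the 6 was 0.00332 to 0.0539. Per1, a repressor of the clock, ranged from 1.89 over 5.40 (median) to 33.3 CPM in liver and from 11.8 over 25.3 to 110 CPM in kidney. Males 3 and 4 of group 11 and male 6 of group 14 were the 3 highest in both organs, with 32.9, 27.5 and 33.3 CPM in liver and 98.2, 110 and 80.8 CPM in kidney. The correlation was r = 0.84 (Spearman rho 0.86, permutation adjusted p = 0.00259, 27 males) and remained 0.82 without the 2 males farthest from the median. Tsc22d3, the leucine zipper induced by glucocorticoids, gave r = 0.88 (rho 0.91, permutation adjusted p = 0.00259, 0.90 without the 2 farthest), and male 4 of group 11 had its highest liver level (113 CPM) and 127 CPM in kidney. Nr1d1, the clock repressor also called Rev-erb alpha, gave r = 0.84 (rho 0.78, permutation adjusted p = 0.00858, 0.76 without the 2 farthest), and male 6 of group 20 was the highest in liver (86.3 CPM) and in kidney (85.9 CPM). Usp2, a deubiquitinase with a daily rhythm, gave r = 0.82 (rho 0.75, permutation adjusted p = 0.00259, 0.74 without the 2 farthest). Zbtb16, a transcription factor induced by glucocorticoids, reached 66.8 CPM in liver and gave r = 0.79 (rho 0.78, permutation adjusted p = 0.00691, 0.71 without the 2 farthest). Zfp354a, a zinc finger protein, gave r = 0.69 (rho 0.67, permutation adjusted p = 0.0396, 0.64 without the 2 farthest).

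For Zfp354a and Usp2, 5 males stood apart from the rest in liver. Males 3, 4, 6 and 7 of group 11 and male 6 of group 14 were the 5 highest of 27 in liver for both genes, and the 5 highest in kidney for both. Their liver levels were 125 to 179 CPM for Zfp354a, where male 7 of group 20 followed with 59.6 CPM, and 29.6 to 37.5 CPM for Usp2, where the next male had 13.7 CPM. On the larger side of the widest gap in the liver deviations r was 0.41 for Zfp354a (19 males), 0.23 for Usp2 (14 males) and 0.50 for Zbtb16 (15 males). Such a cut narrows the range in liver, which lowers r by itself, and it does not leave out just those 5 males. How much of the correlation rested on them was not tested. Per1, Tsc22d3 and Nr1d1 are not given under this cut. With the date means subtracted as well, the correlations of the 6 genes were 0.60 to 0.88.

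**Figure D3:**
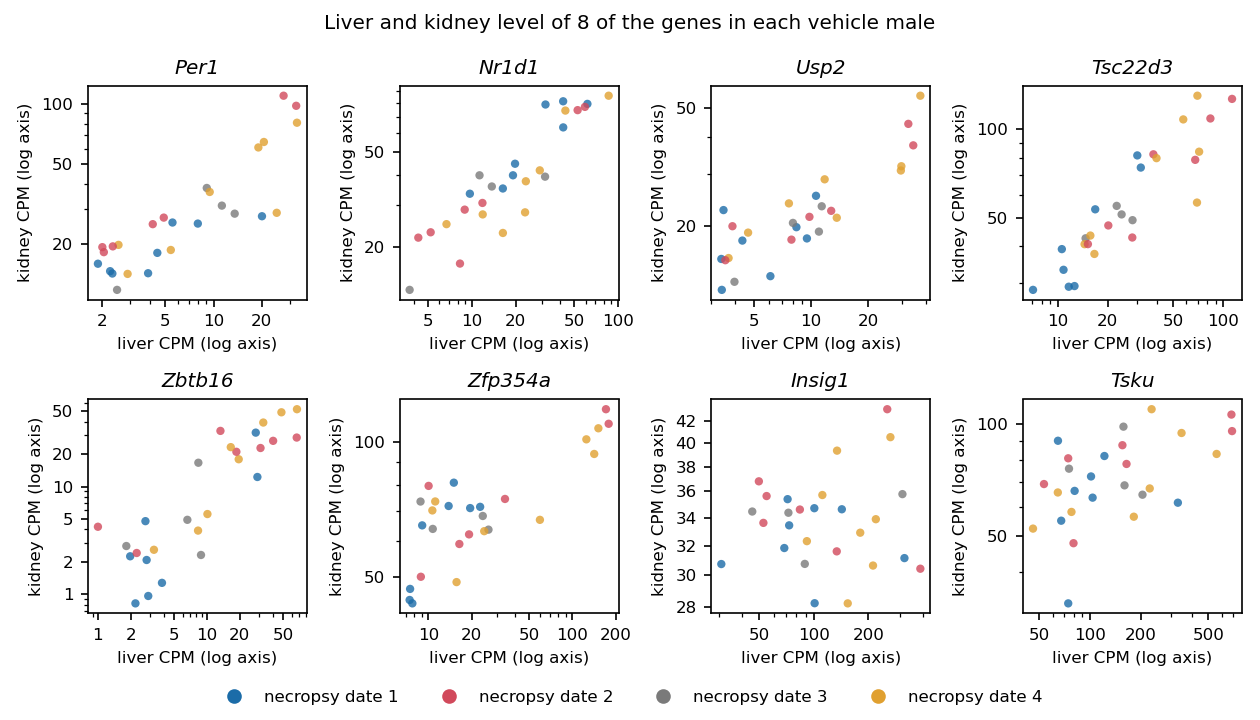
Level in liver and kidney (CPM, both axes logarithmic) of 8 of the genes, 1 point per vehicle male, coloured by necropsy date. Per1, Nr1d1, Usp2, Tsc22d3, Zbtb16 and Zfp354a were called between the organs, whereas Insig1 and Tsku, which varied with Per1 in liver, were not.

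Other genes with a symbol varied in liver without a called correlation with the kidney. Tcim gave r = 0.61 (permutation adjusted p = 0.176), Cdkn1a, the cell cycle inhibitor p21, 0.43, Tsku 0.27, Egr1 0.15 and Insig1, which restrains sterol synthesis, 0.10. Slc34a2, a phosphate transporter, gave 0.08 and Wfdc2 0.00. For Rasgef1b the sign was negative (-0.38). Some clock and glucocorticoid genes on the lists that were not among the 200 were tested as well. Cry1 had r = 0.79 (permutation adjusted p = 0.00968) and Fkbp5 0.73 (permutation adjusted p = 0.00553), and Nr1d2 (0.68, permutation adjusted p = 0.0512) was also called, whereas Dbp (0.64, permutation adjusted p = 0.138) and Arntl (0.55, permutation adjusted p = 0.203) were not. Cry2, another clock repressor, gave 0.07 (permutation adjusted p = 0.949).

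Clustering of the vehicle liver deviations gave 7 blocks of at least 5 genes that held 67 of the 200, and since these are the values that chose the genes the blocks are a description. The second largest, of 12 genes, held 9 with a symbol: Per1, Rasgef1b, Usp2, Zfp354a, Tsku, Tsc22d3, Tcim, Insig1 and Mfsd2a. In liver Per1 correlated at 0.88 with Rasgef1b, 0.84 with Usp2, 0.82 with Tsku, 0.76 with Insig1 and 0.75 with Tsc22d3. In kidney, the same pairs gave 0.85 for Usp2 and 0.82 for Tsc22d3 but -0.22 for Rasgef1b, 0.11 for Insig1 and 0.23 for Tsku. Male 6 of group 14 (date 4) was the highest of this block with a mean deviation of 1.64 on the log2 scale, and male 1 of group 11 (date 1) the lowest with -1.35. Osgin1 varied opposite to the block in liver, at -0.77 with Tsc22d3 and -0.76 with Zfp354a, against 0.16 and -0.26 in kidney.

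Promoters (250 bases before to 50 after the annotated start, RefSeq, build GRCr8) were found for 19 of the 24 genes with a symbol. They were searched on both strands for the E-box CACGTG, bound by the clock activators, the D-box TTATGTAA, the glucocorticoid half-site AGAACA, the nuclear receptor half-site AGGTCA and the sterol element CACCCCAC. No match overlapped another. Insig1 and Nr1d1, shown because their promoters held the E-box, are given (the second of 2 promoters for Nr1d1) with Per1, whose promoter held none of the 5, and Rgs16, which held the nuclear receptor half-site in 2 places. Capitals mark the motifs, on either strand.
Per1, chr10:54304126-54304425, plus strand: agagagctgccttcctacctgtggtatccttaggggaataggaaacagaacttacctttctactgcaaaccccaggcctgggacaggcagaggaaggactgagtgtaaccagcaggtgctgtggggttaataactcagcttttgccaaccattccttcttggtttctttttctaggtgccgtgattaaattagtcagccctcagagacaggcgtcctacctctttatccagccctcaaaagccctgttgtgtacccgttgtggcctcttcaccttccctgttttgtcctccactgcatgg
Insig1, chr4:8057720-8058019, minus strand: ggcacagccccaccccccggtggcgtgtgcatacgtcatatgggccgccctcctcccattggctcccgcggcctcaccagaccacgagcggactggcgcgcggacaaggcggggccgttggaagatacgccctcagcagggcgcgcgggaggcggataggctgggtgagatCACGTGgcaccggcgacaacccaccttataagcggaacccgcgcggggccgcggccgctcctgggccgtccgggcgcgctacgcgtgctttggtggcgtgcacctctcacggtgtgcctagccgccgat
Nr1d1, chr10:84229405-84229704, minus strand: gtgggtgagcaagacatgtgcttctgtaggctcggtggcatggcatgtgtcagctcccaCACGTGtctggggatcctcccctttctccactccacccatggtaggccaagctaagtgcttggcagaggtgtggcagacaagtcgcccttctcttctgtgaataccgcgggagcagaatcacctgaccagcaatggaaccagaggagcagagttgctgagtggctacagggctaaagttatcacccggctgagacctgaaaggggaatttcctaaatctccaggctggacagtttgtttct
Rgs16, chr13:68437870-68438169, plus strand: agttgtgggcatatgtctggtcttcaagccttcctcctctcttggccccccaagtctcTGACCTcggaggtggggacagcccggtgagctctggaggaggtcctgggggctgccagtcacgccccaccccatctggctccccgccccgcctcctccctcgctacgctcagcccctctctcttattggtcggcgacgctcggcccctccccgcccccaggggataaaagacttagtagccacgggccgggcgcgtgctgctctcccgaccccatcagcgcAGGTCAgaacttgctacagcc
Of all 33469 promoters of this length, 6.42% held the E-box, 0.893% the D-box, 20.7% the glucocorticoid half-site, 16.2% the nuclear receptor half-site and 2.7% the sterol element. Among the named genes the E-box was found in 2 (Insig1 and Nr1d1), the D-box in 0, the glucocorticoid half-site in 1 (Tstd1), the nuclear receptor half-site in 4 (Cyp1a2, Osgin1, Rgs16 and Usp2) and the sterol element in 2 (Cdkn1a and Tstd1). These are genes with a match in any of their promoters, whereas the percentages are of single promoters, so the counts and percentages are in unlike units. No match in this window says nothing about sites elsewhere.

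The largest block, of 25 genes without symbols, was highest in male 3 of group 17, with a mean deviation of 2.05 on the log2 scale, and lowest in male 1 of group 11. ENSRNOG00000033916.4, the gene closest to its mean, was at 175 CPM in male 3 of group 17, the highest of 27 males, with a lowest of 12.0 CPM and a median of 25.9 CPM. The date held a median of 32.3% of the squared deviations of these genes, and 1 of the 17 expressed in kidney was called between the organs. A block of 6 genes turned on male 2 of group 11, with a mean deviation of -2.64. ENSRNOG00000029386.5 was at 0.027 CPM in the liver of that male and 0 CPM in its kidney, where the median liver level was 61.7 CPM. Of its 5 genes expressed in kidney, 4 were called between the organs, with r between 0.62 and 0.99 over the 5. The block of 5 genes that was highest in male 1 of group 11 (2.51) had 3 genes expressed in kidney and none called. The block of 5 genes lowest in male 4 of group 14 (-1.97) had 1.

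**Figure D4:**
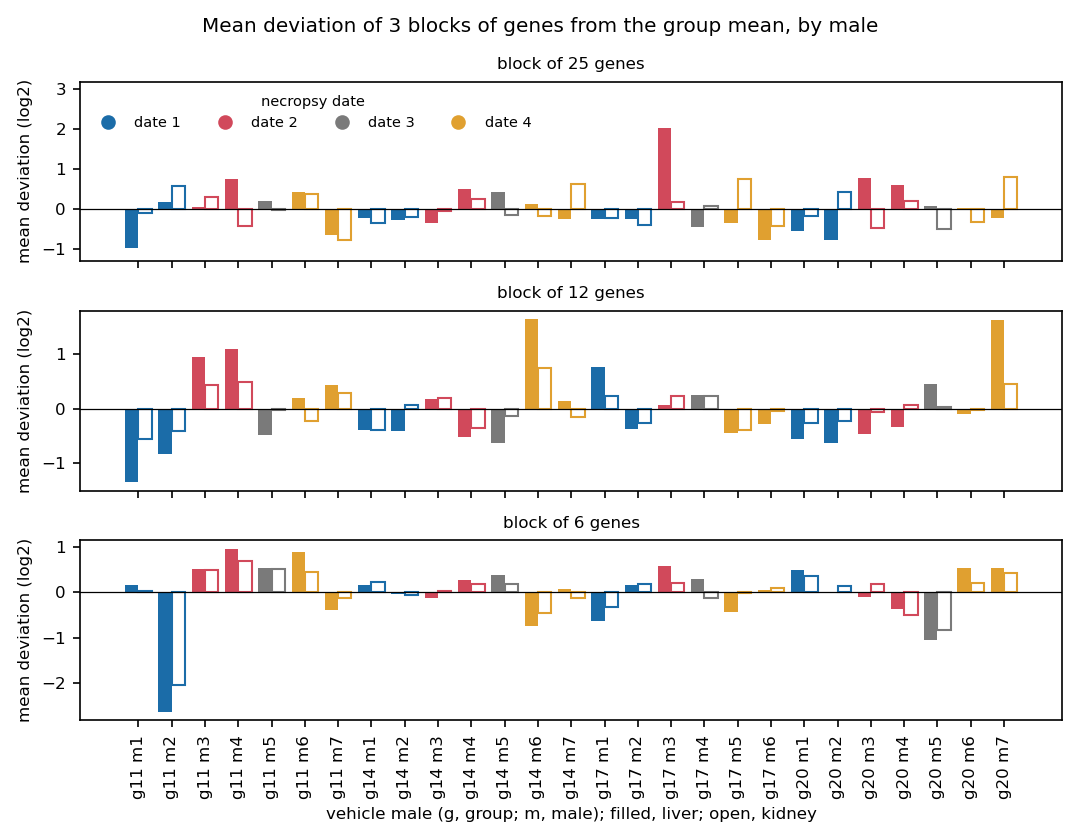
Mean deviation from the group mean (log2 scale) of the blocks of 25, 12 and 6 genes in each vehicle male, filled bars for liver and open bars for kidney, coloured by necropsy date. In liver male 3 of group 17 stands out in the block of 25 at 2.05, whereas in the block of 6 male 2 of group 11 is low in both organs.

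A single animal set the spread of Cyp1a2. This enzyme, which oxidises drugs and caffeine, was at 3672 CPM in male 4 of group 14 and at 289 to 607 CPM in the 6 other males of its group, and that male held 69.0% of its squared deviations. Cyp1a1, which is not among the 200 genes, was at 63.5 CPM in the liver of the same male and at 0 to 0.569 CPM in the other 26. In kidney Cyp1a1 was at 23.7 CPM in that male and at 0.203 to 3.77 CPM in the others. The range of Cdh17, a cadherin, was wide without such a male (4.87, 101 and 247 CPM as lowest, median and highest), with 4.21% of its squared deviations between dates.

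In the treated livers, which the choice did not use, part of the spread was found again. Of the 200 genes, 126 (63%) were also among the 200 with the largest SD in low-dose liver, against 2.16% of the 9259 genes ranked there. In high-dose liver 60 (30%) were, against 1.94% of all genes ranked, and in vehicle kidney 48 (24%), against 1.83%. The median ranks were 126, 447.5 and 578 over the 189, 176 and 136 of the 200 genes that reached a mean of 5 CPM there.

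The necropsy date was tested in the 56 treated livers by edgeR's quasi-likelihood F test over the 3 date terms beside the group, adjusted over all genes tested. It called 10 of the 200 genes (5%), where it called 1.4% of all genes tested and 0.555% of those with 5 CPM in vehicle liver. Zbtb16 had the smallest adjusted p (0.000604, edgeR), with a span of 2.23 on the log2 scale between its highest and lowest date. Its medians on dates 1 to 4 were 3.27, 29.3, 4.17 and 8.19 CPM at the low dose and 2.02, 17.96, 4.92 and 7.12 CPM at the high dose. Date 1 was the lowest and date 2 the highest at both doses. In vehicle liver its medians were 2.84, 18.59, 7.47 and 18.02 CPM, pooled over groups that differed in level. Those groups were spread nearly alike over the dates. Within group 14 the males of date 4 (66.81 and 32.81 CPM) lay above those of date 2 (30.95 and 18.59 CPM), and within group 20 date 4 also lay above date 2, so that the order of the treated livers did not hold there. Cdkn1a (edgeR adjusted p = 0.0116), Tcim (0.0206), Zfp354a (0.0452), Per1 (0.0522), Tsc22d3 (0.0955) and Tstd1 (0.0977) were among the others called, with 2 genes without a symbol. Per1 had medians of 4.55, 18.9, 4.59 and 8.34 CPM on dates 1 to 4 at the low dose, and was highest on date 2 at the high dose as well (21.4 CPM). In vehicle liver the order of its pooled medians differed, at 4.17, 4.17, 10.2 and 14.3 CPM with the highest on date 4. These medians too were pooled over groups that differed in level. The highest Per1 livers named above were males 3 and 4 of group 11 (date 2) and male 6 of group 14 (date 4). Littermates share a date and were counted here as independent livers. With limma-voom in place of edgeR 3 of the 200 genes were called (55 in all), and with the litter as a correlated block 2 (35 in all), Zbtb16 and Cdkn1a. In kidney edgeR's test called 0 of 180 genes and 0 of 18374 genes in all, with 21 and 973 at an unadjusted p under 0.05. DESeq2 called 1 of the 200 there and 25 in all.

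Littermates that received the low and the high dose were compared over 21 litters. None of 172 genes tested passed the adjustment over 9169 genes (two-sided permutation test within cohorts, smallest adjusted p = 0.275), and none passed with Spearman's rho. An unadjusted p under 0.05 was reached by 25 of the 172 (14.5%), against 265 of the 9169 (2.89%), and the median r was 0.22 against 0.027. Zbtb16 had the smallest p, 6e-05, with r = 0.75, adjusted p = 0.275 by the same permutation test.

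The CCl4 response was measured over all 83 livers with edgeR's quasi-likelihood test, where a gene was called at an adjusted p under 0.1 and a log2 fold change over 1 in either direction. Vehicle libraries were the baseline for both doses, so the comparisons share them, and the genes were chosen for their spread among those libraries. At the high dose 87 of the 200 genes were called (43.5%), 17 higher and 70 lower, where the test called 25.3% of all genes (18.5% higher, 6.73% lower). Of the genes with 5 CPM or more in vehicle liver, 10.4% were called (3.41% higher, 7% lower). The median difference of the 200 genes was -0.54 on the log2 scale, against -0.15 over the genes with 5 CPM in vehicle liver. In these bulk samples fewer cells of a type and less RNA per cell cannot be told apart. At the low dose 13 genes were called (6.5%), 6 higher and 7 lower, where the test called 6.26% of all genes (5.76% higher, 0.505% lower) and 0.691% of those with 5 CPM in vehicle liver (0.555% higher, 0.136% lower).

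Rgs16, a G-protein signalling regulator, fell at both doses, from a median of 3.69 CPM in vehicle to 0.938 CPM at the low and 1.17 CPM at the high dose (log2 change -1.71 ± 0.36, adjusted p = 0.000117, and -2.22 ± 0.36, adjusted p = 1.03e-07, edgeR, ± SE). The vehicle range of 0.413 to 28.6 CPM overlapped the high-dose range of 0.126 to 7.06 CPM. Mfsd2a, a transporter of lysophosphatidylcholine, fell at the high dose (-1.80 ± 0.26, edgeR adjusted p = 5.29e-09), and so did Wfdc2 (-1.58 ± 0.22, edgeR adjusted p = 2.18e-09), Zfp354a (-1.66), Tstd1 (-1.32), Trim36 (-1.22) and Zbtb16 (-1.08). Egr1, an immediate early transcription factor, was the member of that list among the 200 and rose at the high dose by 1.27 ± 0.27 (edgeR adjusted p = 2.96e-05). Cyp1a2 was called lower at the high dose (-1.26 ± 0.19, edgeR adjusted p = 1.92e-08). Its medians were 300 CPM in vehicle, 394 CPM at the low and 216 CPM at the high dose, and without male 4 of group 14 its change was -0.97 ± 0.15, which ends the call (edgeR adjusted p = 4.49e-08). Of the clock and glucocorticoid genes among the 200, and Usp2, none passed the limits on both p and fold at the high dose apart from Zbtb16. The log2 changes were -0.25 for Per1, -0.65 for Nr1d1, -0.54 for Tsc22d3, -0.53 for Usp2 and -0.12 for Tat. Insig1 (0.58), Cdkn1a (-0.15) and Cdh17 (-0.76) did not pass either.

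Among the genes without symbols with the smallest p at the high dose, ENSRNOG00000008050.4 went from a median of 66.9 CPM (18.8 to 215) in vehicle and 51.7 CPM at the low dose to 0.0615 CPM (0 to 0.746) at the high dose, with no overlap (edgeR adjusted p = 1.43e-33). ENSRNOG00000011250.6 went from 20.97 and 17.8 CPM to 0.0365 CPM (0 to 1.17), again with no overlap with vehicle (7.72 to 95.2). ENSRNOG00000030719.4 rose from 5.54 to 58.7 CPM (log2 change 2.68 ± 0.21, edgeR adjusted p = 2.39e-19). ENSRNOG00000028896.4 rose from 5.22 to 19.4 CPM at the low and 67.5 CPM at the high dose (1.83 ± 0.27 and 3.16 ± 0.28). ENSRNOG00000051118.1, with a median of 11.4 CPM in vehicle, was at 2.03 CPM at the low and 0.0395 CPM at the high dose, with a highest treated male of 272 CPM at the low dose and of 0.678 CPM at the high dose.

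**Figure D5:**
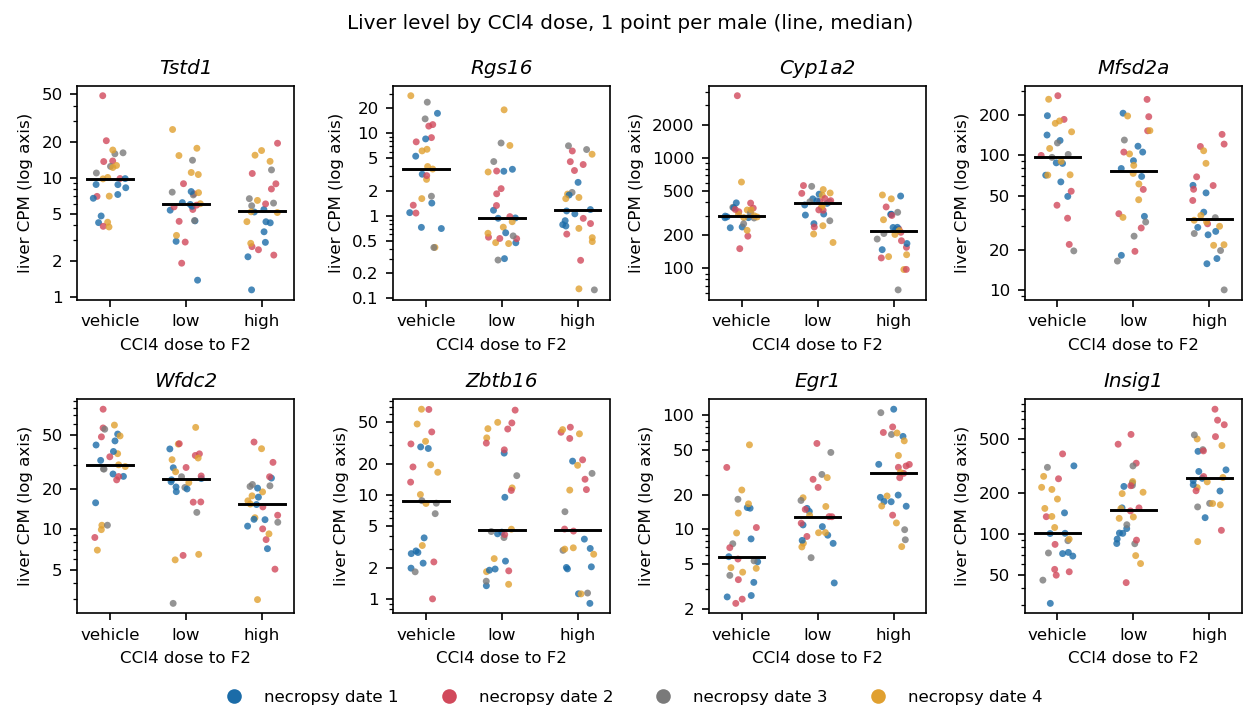
Liver level (CPM, logarithmic axis) of 8 of the genes in vehicle, low-dose and high-dose males, 1 point per male (27, 28 and 28), coloured by necropsy date, with a line at the median. Tstd1, Rgs16, Mfsd2a and Wfdc2 lie lower and Egr1 higher at the high dose than in vehicle, and the single point of Cyp1a2 at 3672 CPM is male 4 of group 14.

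The F0 term, tested beside the F1 treatment and the F2 dose over all 83 livers, called 26 of the 200 genes (13%), 9 higher and 17 lower after F0 treatment, where it called 7.32% of all genes tested (3.87% higher, 3.45% lower) and 12.3% of those with 5 CPM or more in vehicle liver (6.21% higher, 6.05% lower). The share among the 200 was close to that of expressed genes. Of the 26, 21 were genes with a symbol, which the study had chosen for this effect, and 5 had none. Littermates share their F0 forefather and were counted in this test as independent livers. No alternative with the litter was run for the F0 term, so its SE and adjusted p may look firmer than the pedigree allows. Zbtb16 had the smallest adjusted p, at -2.38 ± 0.29 (edgeR adjusted p = 3.82e-08), followed by Tsku (-1.28 ± 0.20, edgeR adjusted p = 1.92e-05), Zfp354a (-1.61 ± 0.28, edgeR adjusted p = 6.41e-05) and Usp2 (-1.11 ± 0.20, edgeR adjusted p = 0.000153). Nr1d1 was higher (0.97 ± 0.23, edgeR adjusted p = 0.00498) and Tsc22d3 lower (-0.80 ± 0.19, edgeR adjusted p = 0.00566). Per1 was lower by -0.92 ± 0.25 (edgeR adjusted p = 0.0147), and -0.66 with the date as a block, which ended its call. The Cyp1a2 call (-0.48, edgeR adjusted p = 0.0701) also ended without male 4 of group 14 (-0.26, edgeR adjusted p = 0.20). The 5 males highest for Zfp354a in vehicle liver were all in groups 11 and 14, which had no F0 treatment.

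Of the gene lists, the 200 genes held 2 clock genes of 8 with an identifier (Per1 and Nr1d1), 4 glucocorticoid-induced genes of 6 (Tsc22d3, Zbtb16, Tat and Per1), 1 of 3 in cholesterol synthesis and uptake (Insig1), 1 of 4 drug-metabolising enzymes (Cyp1a2), 1 of 3 immediate early genes (Egr1) and 1 of 3 in the list of the integrated stress response and p53 (Cdkn1a). These counts are over every listed gene with an identifier, some of which (Per3, Lcn2, Cyp1a1, Cyp2c24 and Fos among them) lay under 5 CPM in vehicle liver and could not be chosen. Over all genes with a symbol that had 5 CPM, 24 of 1164 were among the 200. With so few identifiers in each list, the counts describe which genes were held and no more.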

How the data were processed

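RNA of liver (83 samples) and kidney (27) was measured from stranded polyA libraries read as pairs. The deposited values are estimated counts per gene, not normalized, which the authors made with Salmon 0.14.0 and tximport under R 3.5.0 (versions from the submitters' processing notes); they were rounded to whole numbers. Estimated counts can be divided between near-identical copies. Average transcript lengths served as offsets in an alternative only. Groups came from the labels, and litters and necropsy dates from the study's methods. The genes and lists were chosen with earlier results of these data known.

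CPM was the count divided by the library total and scaled to CPM, and logs were log2(CPM + 1). Correlations used 100000 resamples, whose smallest p is 1e-05. Differential tests used edgeR 4.0.16 (R 4.3.3, limma 3.58.1) with TMM, on genes whose counts summed to more than 10 in some group. They were called at an adjusted p under 0.1, for doses with an absolute log2 change over 1 and for F0 with a mean normalized count over 50. DESeq2 1.42.0 and, for the date, limma-voom were alternatives, and Python 3.11.15, numpy 2.4.6, scipy 1.17.1, pandas 2.3.3 and matplotlib 3.10.9 were used. The steps were tested on simulated data. Blocks came from average linkage on 1 minus Pearson r, with a limit of 0.5.

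Named were the 20 genes of largest SD, up to 4 per list, per test among called genes and per male with over 10% of the squared deviations, the genes at the boundary and up to 4 per block; identifiers only where no symbol could be named. The gap of 1.5, the males left out by name and the examples of liver-kidney and CCl4 values beyond this were chosen after the values were seen. Kidney of treated males was not analysed here, and results for 1 of the 24 genes with a symbol are not reported here. With 27 males, precision is set by their number.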

Additional observations from a re-analysis of the deposited data

Results flagged for a closer look

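In each group of 6 or 7 vehicle males, the liver level of each named gene with a symbol was examined for a male far from the others (a gap above Dixon's 95% critical value). Of 92 group tests, 11 marked a male. Chance marks about 1 in 20 in genes not chosen for their spread, whereas these genes were chosen for a large spread in these same values, so the marks are a description and their number supports nothing. Zfp354a was at 152 CPM in male 6 of group 14 (date 4), the highest of its group, with 9.05 to 24.4 CPM in the other males. Slc34a2 was at 5.83 CPM in male 3 of group 17 (date 2), the lowest of its group, with 51.3 to 97 CPM in the other males. Tsku was at 559 CPM in male 6 of group 14 (date 4), the highest of its group, with 103 to 181 CPM in the other males. Tsku was at 330 CPM in male 1 of group 17 (date 1), the highest of its group, with 64.3 to 80.9 CPM in the other males. Nr1d1 was at 61.7 CPM in male 2 of group 14 (date 1), the highest of its group, with 8.93 to 16.3 CPM in the other males. Rasgef1b was at 17.6 CPM in male 6 of group 14 (date 4), the highest of its group, with 3.53 to 6.64 CPM in the other males. Rasgef1b was at 13.9 CPM in male 1 of group 17 (date 1), the highest of its group, with 3.64 to 5.65 CPM in the other males. Rasgef1b was at 22 CPM in male 7 of group 20 (date 4), the highest of its group, with 3.85 to 7.5 CPM in the other males. Tstd1 was at 48.6 CPM in male 3 of group 17 (date 2), the highest of its group, with 8.73 to 15.8 CPM in the other males. Cyp1a2 was at 3672 CPM in male 4 of group 14 (date 2), the highest of its group, with 289 to 607 CPM in the other males. Cyp1a2 was at 151 CPM in male 3 of group 17 (date 2), the lowest of its group, with 234 to 293 CPM in the other males. Male 6 of group 14 was marked for Zfp354a, Tsku and Rasgef1b, male 3 of group 17 for Slc34a2, Tstd1 and Cyp1a2, and male 1 of group 17 for Tsku and Rasgef1b. The kidney of male 6 of group 14 held 107 CPM of Zfp354a, among the 5 highest of 27, and that of male 2 of group 14 held 79.4 CPM of Nr1d1. No explanation was tested.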

How the results depend on the processing

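No called value changed direction under the alternatives run. Of the dose and F0 values of genes with a symbol, 4 that had not passed changed sign: with the litter block Cdkn1a at the high dose (-0.15 to 0.12) and Cdh17 (-0.20 to 0.08) and Rasgef1b (0.05 to -0.01) at the low dose, and Cyp1a2 at the low dose (-0.17 to 0.12) without male 4 of group 14. The choice of the 200 genes kept 133 with a minimum mean of 1 CPM and 99 with 20 CPM, and 180 to 196 when 1 male was left out. An adjusted p under 0.05 left 4 of the 10 date calls in treated liver and 17 of the 26 F0 calls. For the date limma-voom called 3, and 2 with the litter as a correlated block (both chosen after seeing the data). DESeq2 called 1 gene for the date in kidney, where edgeR called 0. The genes with r of at least 0.5 between organs numbered 40 to 44 without 1 male, and the liver-kidney calls 32 to 37. With the litter as the replicate block, 16 genes were called at the low dose and 88 at the high dose, against 13 and 87 without the block. Litters were taken from the study's pedigree. Without male 3 of group 17 the calls were 15, 87 and 27 for low dose, high dose and F0, and without male 4 of group 14 they were 16, 84 and 30. The counts with the litter block and without single males are of the 200 genes alone. They are not set beside the calls over all genes in the same fits, so a change in the background cannot be told from them. Leaving out the kidney of male 1 of group 17 or male 7 of group 20 left 0 kidney calls. A gap of 1 gave 33 genes and a gap of 2 gave 14, and a constant of 5 CPM gave 9 with a gap of 1.5. For single-gene values that had passed in the main run, 562 values under other settings were compared. Of these, 522 kept their direction and their side of the threshold and 40 no longer passed, among them the F0 calls of Per1 and Mfsd2a with the date as a block and the high-dose call of Cyp1a2 without male 4 of group 14. Genes that gained a call are outside this count. Trim36 at the low dose (-0.99, not called) was called with the date (-1.02) or the litter (-1.04) as a block. Without male 4 of group 14, Rasgef1b and Tstd1 were called for F0. Levels under about 0.0937 CPM are at the limit of a count of 0.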
